A study of Homo sapiens with 12 samples.

Results

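The 31 genes described here encode enzymes and regulators of cholesterol and fatty acid synthesis. They were taken by gene symbol from a list of 31 symbols, and each symbol matched 1 of the 58735 genes in the deposited table. By role they comprise 18 enzymes from acetyl-CoA to cholesterol, 4 genes of the sterol regulatory element-binding protein (SREBP) switch with the sterol carrier STARD4, and 8 enzymes of fatty acid synthesis. RNA had been sequenced from HaCaT cells, a spontaneously immortalised line of human keratinocytes, grown in medium with fetal bovine serum, which itself supplies lipoprotein cholesterol. The 4 groups of 3 libraries were cells with siRNA against PHGDH and Mix (PHGDH-siRNA+Mix), cells with control siRNA and Mix (Control-siRNA+Mix), cells with siRNA against PHGDH (PHGDH-siRNA) and cells with control siRNA (Control-siRNA). Mix was applied for 24 h. What Mix holds, which siRNA sequences were used and whether replicates are separate cultures is not given in the sources used here, and p-values thus reflect the spread among these libraries, which may be technical. PHGDH makes the phosphoglycerate dehydrogenase that starts serine synthesis.

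Cells build cholesterol from acetyl-CoA through mevalonate, isoprenoids, squalene and lanosterol, and fatty acids from the same acetyl-CoA through malonyl-CoA. Transcription of both routes is set by SREBPs, membrane-bound factors that SCAP escorts to the Golgi for cleavage when membrane sterol is low and that INSIG proteins hold in the endoplasmic reticulum when it is high. In epidermis, keratinocytes make cholesterol and fatty acids for the lipid barrier of the stratum corneum as well as for their own membranes.

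SREBPs bind promoters together with NF-Y, whose site reads CCAAT on either strand. Promoters of 3 members whose levels are described below are shown for this site, which is in capitals in either direction (CCAAT or ATTGG). They were chosen after values were seen, come from RefSeq on GRCh38.p14 and are written 5′ to 3′ on the strand of the gene. The MSMO1 stretch is chr4:165327473-165327622 on the plus strand, the INSIG1 stretch chr7:155297628-155297775 on the plus strand and the STARD4 stretch chr5:111512591-111512740 on the minus strand.
MSMO1: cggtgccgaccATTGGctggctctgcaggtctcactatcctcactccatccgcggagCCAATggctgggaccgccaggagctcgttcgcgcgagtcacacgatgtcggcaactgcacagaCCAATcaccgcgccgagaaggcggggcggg
INSIG1: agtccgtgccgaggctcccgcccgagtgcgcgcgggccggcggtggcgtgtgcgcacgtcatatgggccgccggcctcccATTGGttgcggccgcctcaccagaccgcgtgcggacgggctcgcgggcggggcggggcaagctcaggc
STARD4: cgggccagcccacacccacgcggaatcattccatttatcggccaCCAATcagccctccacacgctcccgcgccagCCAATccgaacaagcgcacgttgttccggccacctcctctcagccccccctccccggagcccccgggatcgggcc
The MSMO1 stretch holds 3 such sites, the STARD4 stretch 2 and the INSIG1 stretch 1.

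Promoter sequence, from 250 bases before to 50 after the start, was at hand for 27 of the 31 genes. A gene was counted if any of its promoters held the motif. CCAAT lay on either strand in the promoters of 21 of these 27 genes (77.8%), against 43.2% of the 9369 tested genes with a promoter and 39.7% of all 27305 genes with a promoter. The GC box GGGCGG lay in 26 of 27 (96.3%) against 77.2% of those tested genes and 48.3% of all such genes. The E-box CACGTG lay in 4 of 27 (14.8%) against 12.6% and 8.775%. The sterol regulatory element TCACNCCAC, searched on both strands, lay in 1 of 27 genes (3.70%) against 1.45% of tested genes and 1.39% of all such genes. That gene was SREBF2, which encodes SREBP2, the main driver of cholesterol synthesis. Its promoter is shown at chr22:41832912-41833040 on the plus strand of GRCh38.p14 (RefSeq), with the element in capitals beginning 133 bases before the start.
SREBF2: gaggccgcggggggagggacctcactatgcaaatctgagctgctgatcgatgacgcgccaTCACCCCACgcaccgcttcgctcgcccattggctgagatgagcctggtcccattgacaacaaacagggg
These matches describe the letters in these windows and were set against no measurement of binding. No motif searched contains the letters of another.

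All 31 genes passed the filter of a mean of 0.5 FPKM or more (fragments scaled to gene length and sequencing depth) in at least 1 group, so all entered the test. Together they took 0.495% to 0.809% of the reads of a library. On the per-length scale SCD was highest, at a mean of 298.6 FPKM over the 12 libraries. FDFT1 (93.1 FPKM), ACLY (79.2 FPKM) and FASN (75.6 FPKM) followed, and STARD4 (4.90 FPKM), TM7SF2 (4.20 FPKM), CYP51A1 (2.54 FPKM) and FADS2 (1.35 FPKM) were lowest. The fewest reads behind any value were 48, for CYP51A1 in 1 library. In GENCODE 29, 83.2% of the exon bases of CYP51A1 are shared with 3 other genes, 1 of them the antisense CYP51A1-AS1, and 52.3% of those of ACAT2 are shared with SOD2, SOD2-OT1 and TCP1 on the other strand. The treatment of strand and overlaps in counting is not given here, so the levels of both genes are uncertain.

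The libraries held 16403845 to 20901128 recovered reads, with 3.81% to 7.08% from mitochondrial genes. PHGDH stood at 19.1, 13.3 and 11.5 FPKM in PHGDH-siRNA+Mix cells against 31.9, 31.2 and 26.6 FPKM in Control-siRNA+Mix cells, and at 23.7, 20.1 and 16.9 FPKM in PHGDH-siRNA cells against 36.5, 56.2 and 45.8 FPKM in Control-siRNA cells. Groups did not overlap in either pair, and the change averaged over Mix was −1.08 on the log2 scale (limma, adjusted p = 0.0197; 0.2003 with Mix and 0.128 without). The averaged test counted same-numbered PHGDH-siRNA+Mix and PHGDH-siRNA libraries as independent, although they deviated from their group means together (correlations 0.690, 0.775 and 0.459). With same-numbered libraries averaged over Mix, 0 of 14577 genes tested were called, so PHGDH was not called there. All 8 keratinocyte markers were expressed (summed level 4630 to 7897, 4315 to 4746, 2231 to 6549 and 1677 to 2619 FPKM in PHGDH-siRNA+Mix, Control-siRNA+Mix, PHGDH-siRNA and Control-siRNA libraries), while the summed markers of fibroblasts, melanocytes, leukocytes, endothelial cells and of adipocytes and sebocytes each stayed at or below 2.86 FPKM, with PTPRC, TYR, KDR and ADIPOQ at 0 throughout. The replicate 2 libraries of PHGDH-siRNA+Mix and PHGDH-siRNA stood apart from the other libraries of their groups, with values given below, so results that rest on them are given with and without both. In bulk RNA, fewer cells of a type and less RNA per cell cannot be told apart.

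**Figure D1:**
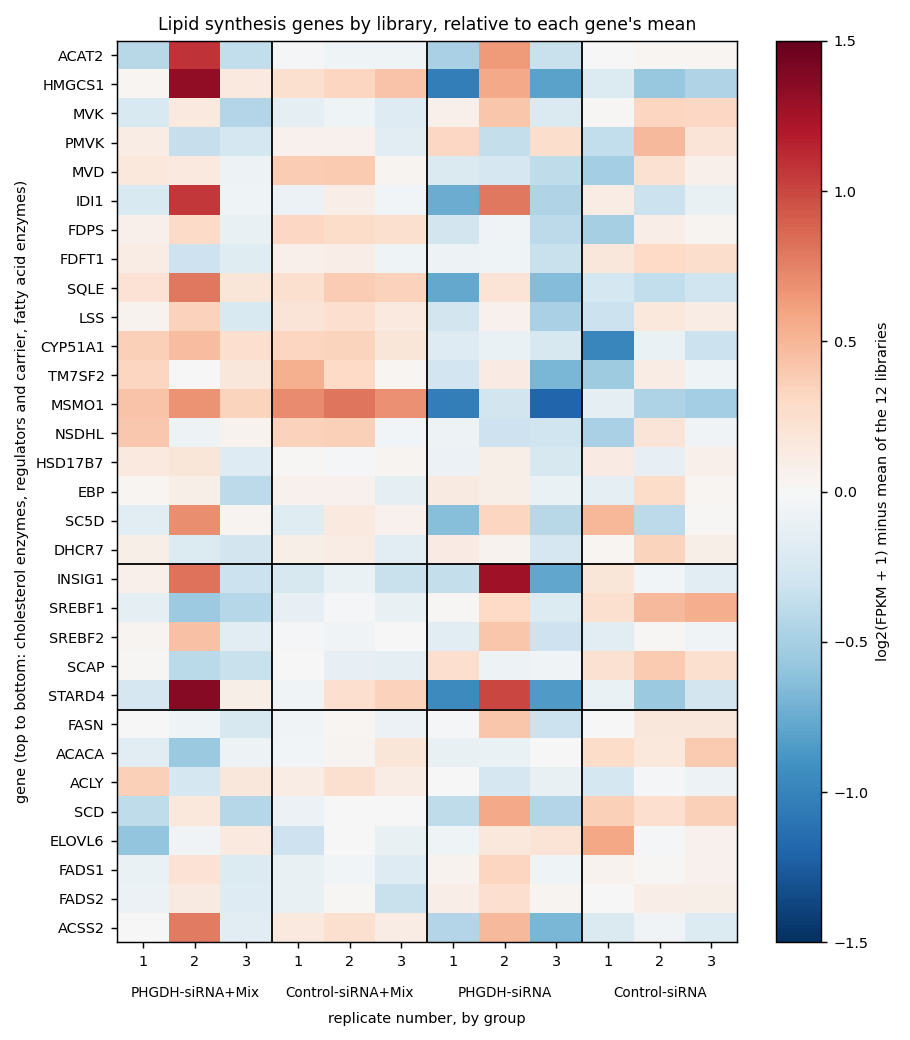
Each row is 1 of the 31 genes and each column 1 library, in groups of 3; colour is log2(FPKM + 1) minus the gene's mean over the 12 libraries, red above and blue below. MSMO1 is red in all 6 Mix libraries and blue in all 6 others, and replicate 2 of both PHGDH-siRNA groups is redder than its neighbours for genes such as HMGCS1, IDI1, INSIG1 and STARD4.

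The comparison of Mix with no Mix in control-siRNA cells asked how the treatment changed these genes where PHGDH was not targeted. Mix raised MSMO1 and CYP51A1, both sterol ring demethylating enzymes, and the remaining 29 genes did not pass the test. Changes are differences of log2(FPKM + 1) from limma with their standard error (SE), and a gene was called at a Benjamini-Hochberg adjusted p under 0.05 over all 14577 genes tested. The call share of 9.54% over all genes tested was not exceeded by the 2 of 31 genes called here. Across the 31 genes 14 were higher and 17 lower with Mix, with a median change of −0.03 against 0.00 over all genes. By role the medians were 0.16 for the 18 cholesterol enzymes (10 higher), −0.22 for the 5 regulators and carrier (2 higher) and −0.19 for the 8 fatty acid enzymes (2 higher). Groups did not overlap for 15 of the 31 genes (8 higher with Mix, 7 lower), against 37.8% of all genes tested. The sum of the keratinocyte markers was also higher with Mix (4315 to 4746 FPKM against 1677 to 2619 FPKM), but single markers differed in direction. KRT14, KRT17 and TP63 were higher in every Mix library. KRT5 was lower in every one, at 320, 327 and 298 FPKM against 356, 515 and 550 FPKM without Mix. The part of these markers in the lipid gene values was not tested.

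MSMO1 encodes methylsterol monooxygenase, which starts the removal of the methyl groups at carbon 4 of the sterol ring. Its level was 93.2, 99.1 and 91.8 FPKM in Control-siRNA+Mix cells against 51.2, 40.7 and 39.5 FPKM in Control-siRNA cells. Every Mix library lay above every library without Mix, by 2.16-fold in the means, and the change was 1.10 (SE 0.22, adjusted p = 0.00872). It was called under every alternative run, with adjusted p between 0.000159 and 0.0466.

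CYP51A1, the lanosterol demethylase, had 3.27, 3.31 and 2.89 FPKM in Control-siRNA+Mix cells against 0.743, 2.20 and 1.74 FPKM in Control-siRNA cells. The groups did not overlap, and replicate 1 without Mix, which had the highest mitochondrial share of the 12 libraries (7.08% of reads), was the lowest by far. The change was 0.74 (SE 0.19, adjusted p = 0.0332) and fell to 0.49 (adjusted p = 0.0396) without that library. The call was lost without Control-siRNA replicate 3 (adjusted p = 0.0687) and without Control-siRNA+Mix replicate 1 (0.110), 2 (0.114) or 3 (0.0837). It was also lost with no filter on low values, with median centring, with quantile normalization and with the control-siRNA groups fitted alone. Over all alternatives the adjusted p ran between 0.0141 and 0.114, and the overlap of its exons with other genes leaves the level itself uncertain.

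HMGCS1 and SQLE had Mix and no-Mix libraries apart without a call. HMGCS1, the synthase that makes HMG-CoA at the entry of the mevalonate route, had 32.8, 34.9 and 37.5 FPKM in Control-siRNA+Mix cells against 23.9, 18.4 and 19.9 FPKM in Control-siRNA cells. All Mix libraries were higher, by 1.69-fold in the means, with a change of 0.74 (SE 0.41, adjusted p = 0.338). SQLE, the squalene epoxidase, averaged 68.8 ± 3.5 FPKM in Control-siRNA+Mix cells against 44.1 ± 1.7 FPKM in Control-siRNA cells (SD, n = 3 each), with a change of 0.63 (SE 0.24, adjusted p = 0.146).

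The standard errors of these genes came from all 4 groups, and HMGCS1 spread most in the PHGDH-siRNA groups. With the 2 control-siRNA groups fitted alone, the SE of HMGCS1 was 0.12, and 6 of the 31 genes were called, against 19.4% of the genes tested in that fit. Higher with Mix were HMGCS1 (adjusted p = 0.00658), SQLE (0.00399), MSMO1 and ACSS2, and lower were SREBF1 (0.0186) and SCAP (0.0292). With both PHGDH-siRNA replicate 2 libraries left out of the fit, 7 were called, against 20.8% of all genes: HMGCS1, SQLE, CYP51A1, MSMO1 and ACSS2 higher, SREBF1 and SCD lower. In both fits the members' share of calls was near that of all genes.

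Among the other cholesterol enzymes in control-siRNA cells, FDPS, which makes farnesyl diphosphate, was higher in every Mix library (43.8 ± 1.2 FPKM with Mix against 33.7 ± 7.3 FPKM without; change 0.39, adjusted p = 0.205). ACAT2, MVK and FDFT1 (thiolase, mevalonate kinase and squalene synthase) were lower in every Mix library, and none was called. FDFT1 averaged 95.0 ± 5.7 FPKM with Mix against 109.3 ± 5.2 FPKM without, a change of −0.20 (adjusted p = 0.456). The other 10 enzymes (PMVK, MVD, IDI1, LSS, TM7SF2, NSDHL, HSD17B7, EBP, SC5D and DHCR7) had overlapping groups.

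The regulators of the switch did not move as one in control-siRNA cells. SREBF1 encodes SREBP1, the driver of fatty acid synthesis, and had 30.8, 32.8 and 31.04 FPKM in Control-siRNA+Mix cells against 39.7, 47.3 and 49.7 FPKM in Control-siRNA cells. All Mix libraries were lower, with a change of −0.51 (SE 0.16, adjusted p = 0.0654), and the test on recovered reads (limma-voom) called it at −0.60 (adjusted p = 0.0206). SCAP, the escort of SREBPs, averaged 9.73 ± 0.65 FPKM with Mix against 12.9 ± 0.9 FPKM without, with no overlap and a change of −0.37 (SE 0.14, adjusted p = 0.129; −0.48 and 0.0331 on recovered reads). SREBF2 had 49.4, 48.1 and 50.3 FPKM with Mix against 44.7, 50.6 and 48.1 FPKM without, with overlapping groups (0.04, adjusted p = 0.937). INSIG1, the sterol-sensitive anchor that retains SCAP, had 22.5, 24.9 and 21.0 FPKM with Mix against 30.6, 25.9 and 23.8 FPKM without (−0.22, SE 0.44, adjusted p = 0.847). STARD4, which carries sterol between membranes, averaged 5.02 ± 0.84 FPKM with Mix against 3.29 ± 0.66 FPKM without, higher in every Mix library but with an SE of 0.50 on a change of 0.49 (adjusted p = 0.664).

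Of the 8 fatty acid enzymes none was called in control-siRNA cells. SCD, the desaturase that turns stearate into oleate, had 273.4, 292.5 and 290.5 FPKM in Control-siRNA+Mix cells against 373.6, 346.0 and 373.8 FPKM in Control-siRNA cells. Every Mix library was lower, with a change of −0.35 (SE 0.25, adjusted p = 0.483). FASN, the fatty acid synthase, had 72.3, 76.8 and 70.3 FPKM with Mix against 75.1, 84.6 and 84.6 FPKM without, with overlap (−0.15, adjusted p = 0.691). ACLY, which splits citrate into acetyl-CoA, and ACSS2, which makes acetyl-CoA from acetate, were higher in every Mix library (0.28 and 0.33; adjusted p = 0.359 and 0.600). FADS1, a desaturase of polyunsaturated fatty acids, was lower in every Mix library (−0.16, adjusted p = 0.558), and ACACA, ELOVL6 and FADS2, a carboxylase, an elongase and another such desaturase, overlapped with changes between −0.35 and −0.21.

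In PHGDH-siRNA cells Mix again raised MSMO1, the only one of the 31 genes called, a share not above the 8.86% of all genes tested. MSMO1 had 76.2, 90.9 and 71.4 FPKM in PHGDH-siRNA+Mix cells against 27.0, 46.6 and 24.3 FPKM in PHGDH-siRNA cells. The groups did not overlap, the means differed 2.44-fold, and the change was 1.31 (SE 0.22, adjusted p = 0.00359). With the 2 PHGDH-siRNA groups fitted alone its adjusted p was 0.0729. No gene of the 31 was called in that fit, against 254 of 14009 genes tested. In all, 19 of the 31 were higher and 12 lower with Mix (median 0.14 against 0.00 over all genes). This median turned on single libraries, at −0.01 (15 higher) without PHGDH-siRNA+Mix replicate 2, 0.03 (16 higher) without PHGDH-siRNA replicate 3 and 0.31 (21 higher) without PHGDH-siRNA replicate 2. It was 0.08 without PHGDH-siRNA replicate 1 and 0.25 without PHGDH-siRNA+Mix replicate 3. By role, with all libraries, the medians were 0.34 for the cholesterol enzymes (14 of 18 higher), 0.12 for the regulators and carrier (3 of 5) and −0.13 for the fatty acid enzymes (2 of 8). Groups were apart for 4 genes, all higher with Mix (MVD, CYP51A1, MSMO1 and NSDHL), against 21.5% of all genes. CYP51A1 had 3.39, 3.72 and 3.08 FPKM in PHGDH-siRNA+Mix cells against 1.99, 2.20 and 1.90 FPKM in PHGDH-siRNA cells (0.54, SE 0.19, adjusted p = 0.117).

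Within the PHGDH-siRNA groups, libraries with the same number deviated together, so the comparison was also made with the replicate number as a block in those groups, a choice made after seeing the data. It called 7 of the 31 genes, against 22.5% of all genes tested. HMGCS1 was higher with Mix by 0.92 (adjusted p = 0.000526), SQLE by 0.80 (0.000427), STARD4 by 0.67 (0.0148), ACSS2 by 0.41 (0.00600) and IDI1, the isopentenyl diphosphate isomerase, by 0.39 (0.0380). MSMO1 was the sixth gene higher with Mix (adjusted p = 0.000225), and SCAP was lower by a change of −0.28 (0.0313). The members' share of calls was again near that of all genes. Without both replicate 2 libraries, 5 were called, against 15.1% of all genes: HMGCS1 (1.00), SQLE (0.90), STARD4 (0.82) and ACSS2 (0.47) beside MSMO1. Without PHGDH-siRNA replicate 2 alone, 3 were called, HMGCS1 and SQLE (adjusted p = 0.0201 and 0.00352) with MSMO1. That fit called 1644 of all 14589 genes tested in it.

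**Figure D2:**
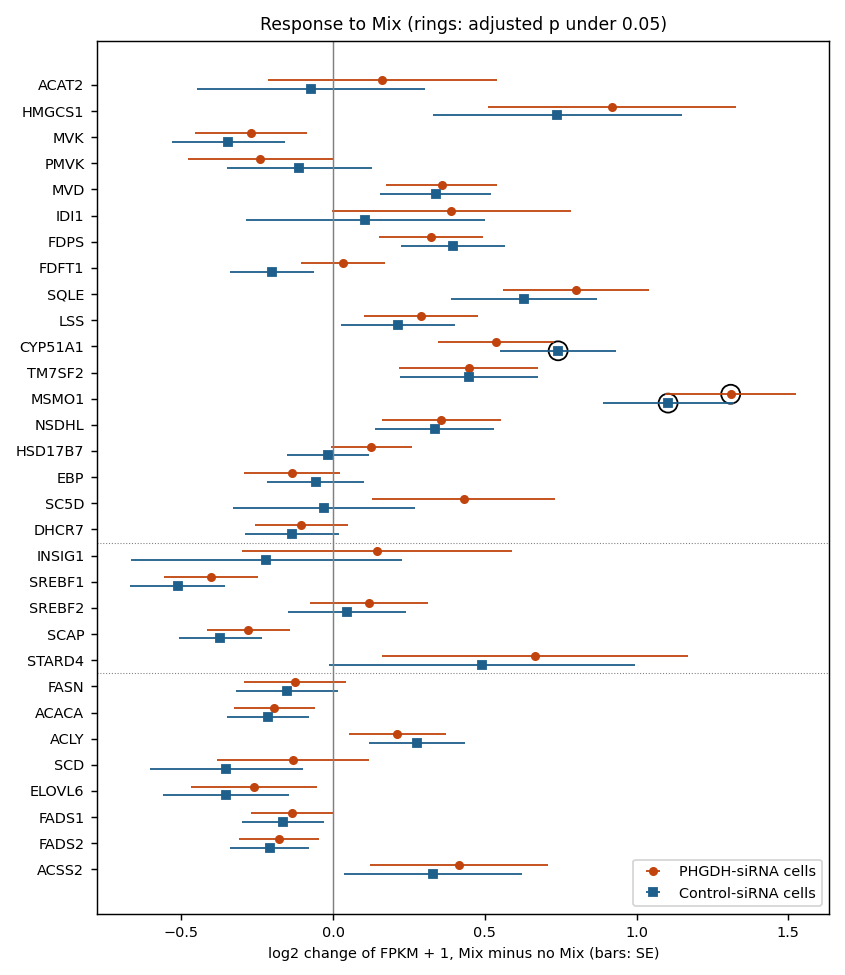
Points are the log2 changes of FPKM + 1 with Mix for each gene, circles in PHGDH-siRNA cells and squares in Control-siRNA cells, with SE bars and rings at an adjusted p under 0.05. MSMO1 is ringed in both (1.31 and 1.10) and CYP51A1 in Control-siRNA cells (0.74); the dotted lines part cholesterol enzymes, regulators and carrier, and fatty acid enzymes.

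HMGCS1 and SQLE were called with the block in the PHGDH-siRNA groups, and without it when replicate 2 was left out, but not in the main test. HMGCS1 had 28.2, 70.9 and 30.8 FPKM in PHGDH-siRNA+Mix cells against 13.0, 41.7 and 15.5 FPKM in PHGDH-siRNA cells. Each numbered library was higher with Mix, but replicate 2 without Mix lay above replicates 1 and 3 with Mix, so the groups overlapped (SE 0.41, adjusted p = 0.219 without the block). SQLE was laid out likewise, with replicate 2 without Mix above replicate 3 with Mix, at 63.8, 96.1 and 62.3 FPKM with Mix against 31.8, 63.3 and 34.7 FPKM without (0.80, SE 0.24, adjusted p = 0.0669 without the block).

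INSIG1 had 28.4, 47.8 and 21.1 FPKM in PHGDH-siRNA+Mix cells against 20.7, 66.2 and 15.1 FPKM in PHGDH-siRNA cells. Replicate 2 was the highest library of both groups, and the groups overlapped (0.14, SE 0.44, adjusted p = 0.893). The mean FPKM of INSIG1 was 32.4 with Mix against 34.0 without, opposite in sign to its log2 change. SREBF1 had 30.6, 22.8 and 24.6 FPKM with Mix against 34.0, 41.4 and 29.04 FPKM without, and replicate 2 was the lowest library with Mix and the highest without. Its change was −0.40 (SE 0.16, adjusted p = 0.151), and −0.19 without both replicate 2 libraries. SREBF2 had 51.2, 68.0 and 44.4 FPKM with Mix against 44.7, 66.8 and 40.2 FPKM without (0.12, adjusted p = 0.786). SCD had 223.4, 325.1 and 215.8 FPKM with Mix against 223.0, 431.6 and 214.9 FPKM without, nearly level outside replicate 2 (−0.13, adjusted p = 0.814). FASN had 74.5, 71.5 and 63.4 FPKM with Mix against 73.6, 100.2 and 59.7 FPKM without (−0.13, adjusted p = 0.728).

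The effect of Mix was set against itself between the arms as an interaction, Mix under PHGDH siRNA minus Mix under control siRNA. None of the 31 genes was called by limma, and 0% of all genes tested were. At an unadjusted p under 0.05 the count among the 31 was 0, and limma-voom on recovered reads also called 0. The estimates were higher than 0 for 25 of the 31, with a median of 0.08, against 49.1% of all genes. That direction rested on single libraries: 11 were higher (median −0.03) without PHGDH-siRNA replicate 3, 15 (−0.02) without PHGDH-siRNA+Mix replicate 2, and 30 (0.12) without Control-siRNA replicate 1, and over all libraries left out in turn the median ran between −0.03 and 0.23. For MSMO1 the interaction was 0.21 (SE 0.30), for HMGCS1 0.18 (SE 0.58), for INSIG1 0.36 (SE 0.63) and for SCD 0.22 (SE 0.35), each with an adjusted p of 0.9999. The SE of INSIG1 and HMGCS1 exceeded 0.5 on the log2 scale, so a difference of that size between the arms was not detectable for them in that fit. With the replicate number as a block in the PHGDH-siRNA groups, 0 of the 31 genes and 0 of all genes tested were called for the interaction. At an unadjusted p under 0.05 that fit held 0 of the 31, against 3.85% of all genes.

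**Figure D3:**
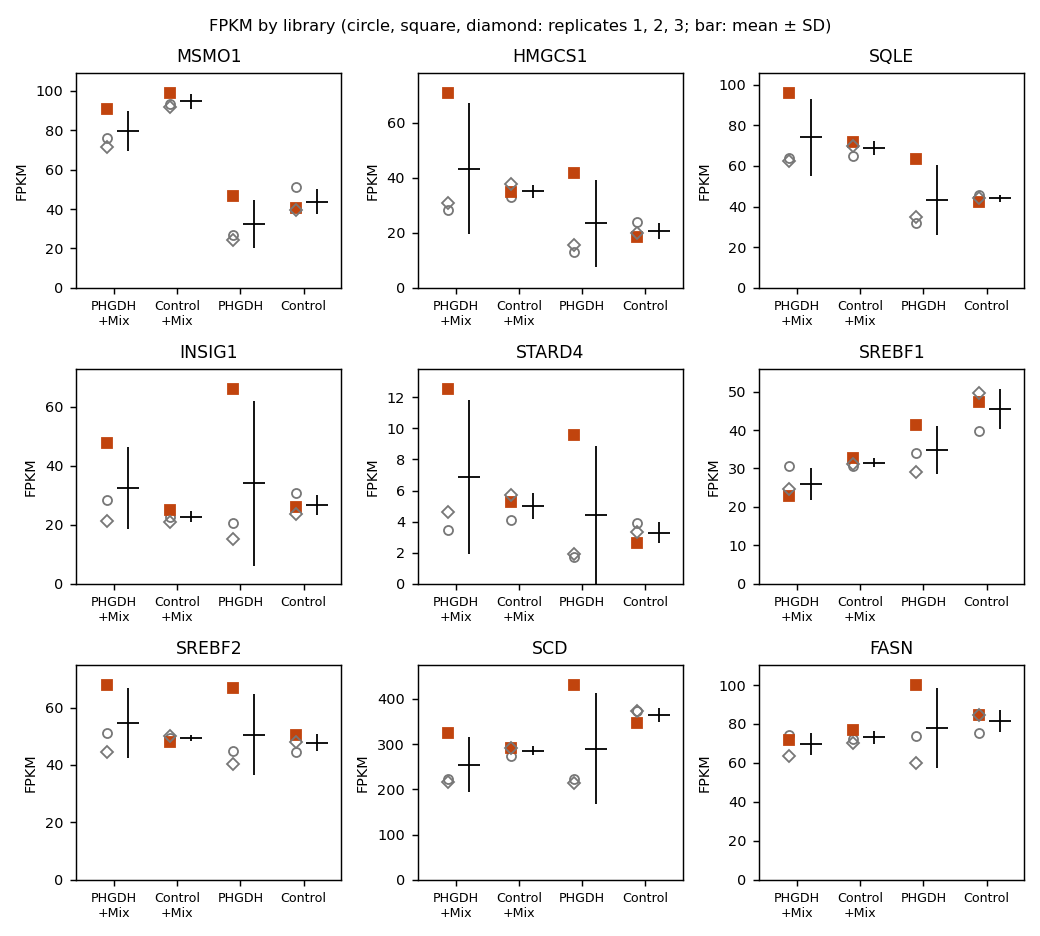
Levels (FPKM, linear axis from 0) of 9 genes in each library: circles, filled squares and diamonds are replicates 1, 2 and 3, and the bar beside them is the group's mean ± SD (the lower bar of STARD4 in PHGDH-siRNA cells ends at the axis). The filled square is far above the other libraries of both PHGDH-siRNA groups for HMGCS1, INSIG1 and STARD4. In the control-siRNA groups it does not stand far above them, and it is the lowest Control-siRNA library for HMGCS1 and STARD4.

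The knockdown comparison, PHGDH siRNA against control siRNA, asked how a partial lowering of PHGDH transcript changed lipid synthesis genes. Mean PHGDH stood at 0.438 of its control-siRNA level without Mix and 0.489 with Mix. No member was called without Mix, with Mix or averaged over Mix by limma, where 0.0412%, 0.0206% and 0.487% of all genes tested were called. At an unadjusted p under 0.05 there were 3, 1 and 4 members, near the 6.41%, 5.72% and 11.2% of all genes, and limma-voom called 0 in each. Without Mix 25 of the 31 genes were lower in PHGDH-siRNA cells (median −0.11), with Mix 18 (median −0.07). Of all genes tested, 51.3% were higher without Mix and 49.3% with Mix. Mean FPKM was higher, opposite in sign to the log2 change, for ACAT2, HMGCS1, IDI1 and ACSS2 without Mix and for ELOVL6 with Mix. Single libraries moved both counts of lower members. Without Mix 16 were lower (median −0.01) when PHGDH-siRNA replicate 3 was left out and 27 (−0.29) when replicate 2 was. With Mix 15 were lower (median 0.01) without PHGDH-siRNA+Mix replicate 3 and 26 (−0.11) without replicate 2. The median with Mix was −0.02 without Control-siRNA+Mix replicate 2 and −0.11 without PHGDH-siRNA+Mix replicate 1. Groups were apart for 2 genes without Mix (FDFT1 and ACACA, both lower), against 10.2% of all genes, and for 3 with Mix (MSMO1, SREBF1 and ACACA, all lower), against 14.3%.

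ACACA, the acetyl-CoA carboxylase that commits acetyl-CoA to fatty acids, was the member with PHGDH-siRNA libraries below control-siRNA libraries under both conditions. It averaged 9.86 ± 1.81 FPKM in PHGDH-siRNA+Mix cells against 12.5 ± 1.0 FPKM in Control-siRNA+Mix cells, and 11.3 ± 0.5 FPKM in PHGDH-siRNA cells against 14.6 ± 1.3 FPKM in Control-siRNA cells. Its changes were −0.32 with Mix (SE 0.13, adjusted p = 0.827) and −0.34 without (SE 0.13, adjusted p = 0.694). FDFT1 averaged 82.9 ± 8.8 FPKM in PHGDH-siRNA cells against 109.3 ± 5.2 FPKM in Control-siRNA cells (−0.40, SE 0.14, adjusted p = 0.609).

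Without Mix, MSMO1 and SCD were called only when the replicate 2 libraries of both PHGDH-siRNA groups were left out. MSMO1 had 27.0, 46.6 and 24.3 FPKM in PHGDH-siRNA cells against 51.2, 40.7 and 39.5 FPKM in Control-siRNA cells. Replicates 1 and 3 of PHGDH-siRNA lay below all control-siRNA libraries and replicate 2 within them. Its change was −0.46 (SE 0.22, adjusted p = 0.794) with all libraries and −0.74 (SE 0.13, adjusted p = 0.0411) without both replicate 2 libraries. SCD had 223.0, 431.6 and 214.9 FPKM in PHGDH-siRNA cells against 373.6, 346.0 and 373.8 FPKM in Control-siRNA cells. Replicates 1 and 3 were below all control-siRNA libraries and replicate 2 above all of them, and the change was −0.41 (SE 0.25, adjusted p = 0.931) with all libraries and −0.73 (SE 0.10, adjusted p = 0.0184) without both. Leaving out PHGDH-siRNA replicate 2 alone gave the same changes, −0.74 for MSMO1 and −0.73 for SCD, but no call (limma, adjusted p = 0.201 and 0.268). Both calls thus also needed PHGDH-siRNA+Mix replicate 2, a library outside this comparison, to be left out of the shared fit.

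Leaving out both replicate 2 libraries, 27 of the 31 genes were lower in PHGDH-siRNA cells than in Control-siRNA cells (median −0.29), and MSMO1 and SCD were the 2 called, both lower, against 0.696% of all genes. Without Mix, 15 members had an unadjusted p under 0.05 by limma, against 12.1% of all genes. With Mix 26 of the 31 were lower (median −0.11) and 0 were called, against 0.379% of all genes, with 4 members at an unadjusted p under 0.05 where 11.6% of all genes were. Averaged over Mix 27 were lower (median −0.23) and 3 were called, all lower, against 3.39% of all genes: SCD (−0.55, adjusted p = 0.00718), ACAT2 (−0.39, 0.0120) and MSMO1 (−0.55, 0.0148). With all libraries in, the averaged change of ACAT2 was 0.03, so its direction rests on the 2 libraries left out. Those 2 libraries were left out because they stood apart, and they were the highest of both PHGDH-siRNA groups for 18 of the 31 genes. Leaving them out lowers the PHGDH-siRNA levels of those genes by itself. The counts of lower and called members thus follow in part from that choice. The groups with PHGDH siRNA then held 2 libraries each. The 3 calls averaged over Mix also count same-numbered libraries of these groups as independent, although they deviated together. Averaging same-numbered libraries over Mix, with none left out, called 0 of all 14577 genes tested. That fit thus cannot tell the members from other genes.

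In the fit without both replicate 2 libraries, other genes had a like size of change without Mix but no call. They were STARD4 (−0.59, adjusted p = 0.188), SC5D, the sterol desaturase (−0.56, 0.353), INSIG1 (−0.56, 0.218), SREBF1 (−0.52, 0.140) and HMGCS1 (−0.51, 0.136). With all libraries the changes were 0.04, −0.28, 0.05, −0.39 and −0.01 in that order. SREBF2 stood at −0.17 (adjusted p = 0.584) and FASN at −0.29 (0.395) without both libraries, against 0.05 and −0.09 with them. CYP51A1, PMVK, ACLY and FADS2 were the 4 genes not lower.

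**Figure D4:**
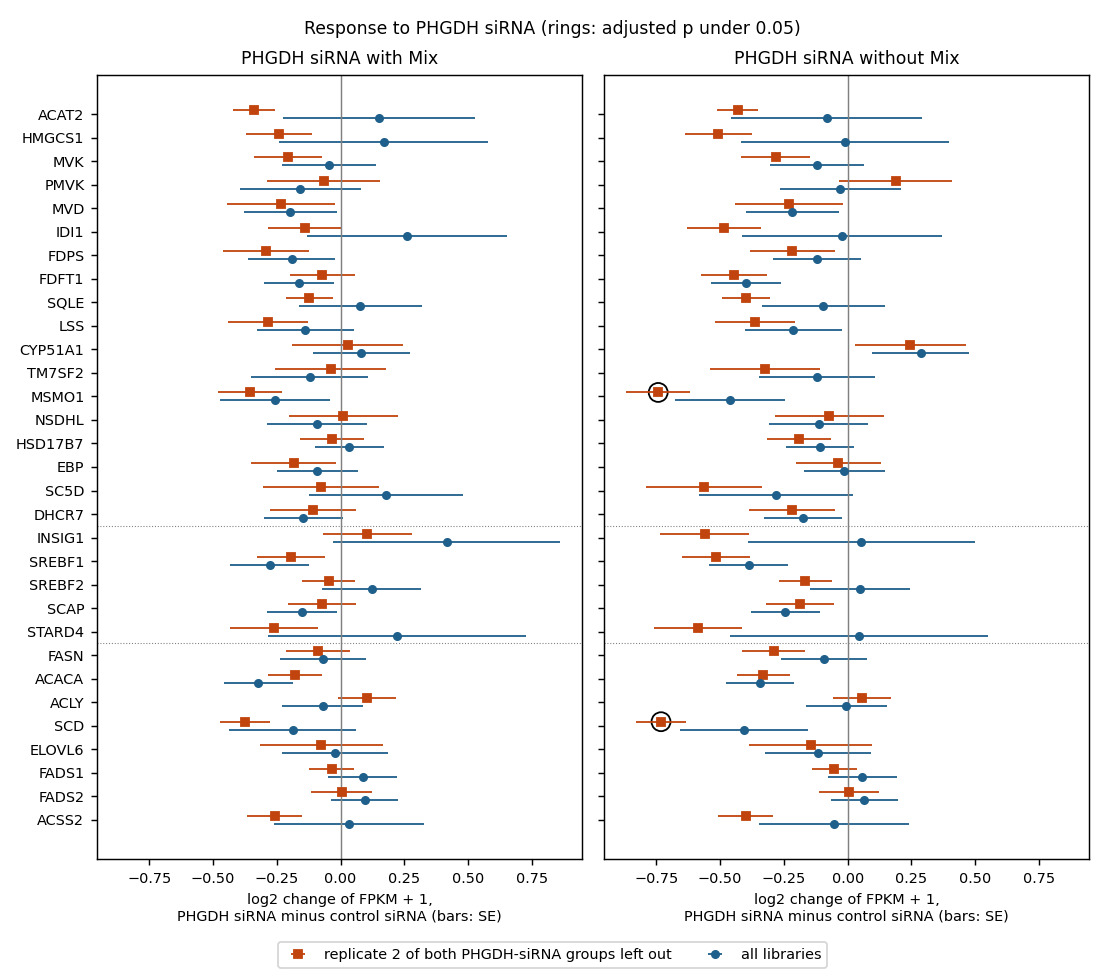
Points are log2 changes of FPKM + 1, PHGDH siRNA minus control siRNA, with SE bars, for Mix cells (left) and cells without Mix (right); squares leave out replicate 2 of both PHGDH-siRNA groups, circles use all libraries, and rings mark an adjusted p under 0.05. Without the replicate 2 libraries MSMO1 (−0.74) and SCD (−0.73) are ringed without Mix, and 27 of 31 squares lie left of 0 there.

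Replicate 2 was the highest library of its group in both PHGDH-siRNA groups for 18 of the 31 genes, against 32.5% of all genes tested, and the lowest in both for 4 (PMVK, NSDHL, SCAP and ACLY), against 34.2%. Other libraries stood at the edge of their groups too: replicate 3 was the lowest of both PHGDH-siRNA groups for 16 of the 31, against 10.8% of all genes, and replicate 2 was the highest of both control-siRNA groups for 11, against 10.2%. The 18 genes highest in replicate 2 of both PHGDH-siRNA groups comprised 11 of 18 cholesterol enzymes, 3 of 5 regulators and carrier (INSIG1, SREBF2 and STARD4) and 4 of 8 fatty acid enzymes (SCD, FADS1, FADS2 and ACSS2). Replicate 2 exceeded the mean of replicates 1 and 3 by the largest ratio for STARD4, 3.12 with Mix and 5.21 without. The ratio was 1.93 and 3.69 for INSIG1, 2.40 and 2.92 for HMGCS1, 2.40 and 2.78 for IDI1, 3.01 and 2.21 for ACAT2, and 1.48 and 1.97 for SCD. For DHCR7, the reductase that makes cholesterol from its dehydro precursor, it was 0.917 and 1.08, and for FASN 1.04 and 1.503.

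Other values moved with these libraries. The summed keratinocyte markers were 7897 FPKM in replicate 2 against 5656 and 4630 FPKM in replicates 1 and 3 of PHGDH-siRNA+Mix, and 6549 FPKM in replicate 2 against 2469 and 2231 FPKM in replicates 1 and 3 of PHGDH-siRNA. KRT14, a basal keratin, was at 2737 FPKM against 1082 and 1092 FPKM with Mix, and at 2986 FPKM against 617.4 and 547.9 FPKM without. Mitochondrial genes took 4.74% of reads in replicate 2 with Mix (3.81% and 4.10% in replicates 1 and 3) and 5.56% without (4.64% and 4.69%). Their part in the lipid gene levels was not tested.

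Genes around the pathway were read from 6 lists of related functions. The shares of all genes called, 8.86% for Mix in PHGDH-siRNA cells and 9.54% in control-siRNA cells, are the background of each count below, and with lists of 8 to 29 genes nothing is read from a count as a whole. Of 18 tested regulators and transporters of sterol, Mix in control-siRNA cells raised 3 and lowered 1, and in PHGDH-siRNA cells raised 2 and lowered 1. NPC1, which exports cholesterol from lysosomes, had 28.1, 18.2 and 20.4 FPKM in PHGDH-siRNA+Mix cells against 9.84, 9.92 and 7.52 FPKM in PHGDH-siRNA cells, and 17.6, 17.2 and 17.5 FPKM in Control-siRNA+Mix cells against 9.34, 8.46 and 8.52 FPKM in Control-siRNA cells. No library with Mix overlapped one without in either arm (changes 1.19 and 0.92; adjusted p = 0.000893 and 0.00391). INSIG2, the second retention anchor of SCAP, averaged 7.14 ± 0.93 FPKM in Control-siRNA+Mix cells against 3.25 ± 0.18 FPKM in Control-siRNA cells (0.93, adjusted p = 0.0422), and STARD5, a relative of STARD4 with the same type of lipid-binding domain, also rose (0.63, adjusted p = 0.0352). TMEM97, a sterol-responsive partner of NPC1, fell in PHGDH-siRNA and in control-siRNA cells (−0.78 and −0.52; adjusted p = 0.00687 and 0.0471). VLDLR, a lipoprotein receptor, rose with Mix in PHGDH-siRNA cells, to 0.982 ± 0.374 FPKM in PHGDH-siRNA+Mix cells against 0.263 ± 0.072 FPKM in PHGDH-siRNA cells (0.63, adjusted p = 0.02002).

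Of 8 tested liver X receptor genes and their textbook targets, Mix raised ABCA1, the exporter of cellular cholesterol, in both arms. It had 5.83, 1.46 and 7.70 FPKM in PHGDH-siRNA+Mix cells against 0.511, 0.0781 and 0.780 FPKM in PHGDH-siRNA cells (1.88, adjusted p = 0.0121), and 4.35, 5.10 and 5.93 FPKM in Control-siRNA+Mix cells against 0.738, 0.375 and 0.592 FPKM in Control-siRNA cells (1.97, adjusted p = 0.00871). ABCA1 was lowest in replicate 2 of both PHGDH-siRNA groups. MYLIP, a ubiquitin ligase for lipoprotein receptors, fell in control-siRNA cells (−0.56, adjusted p = 0.0399), and no other gene of that list was called. Of 11 further cholesterol and isoprenoid enzymes the farnesyltransferase subunit FNTB alone was called, lower with Mix in PHGDH-siRNA cells (−0.54, adjusted p = 0.0172).

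Of 29 further fatty acid and glycerolipid genes, Mix raised 2 and lowered 1 in control-siRNA cells and raised 1 and lowered 1 in PHGDH-siRNA cells. PNPLA3, a lipid droplet hydrolase and a textbook SREBP1 target, averaged 1.12 ± 0.16 FPKM in PHGDH-siRNA+Mix cells against 2.73 ± 0.52 FPKM in PHGDH-siRNA cells (−0.81, adjusted p = 0.00208), and 1.29 ± 0.06 FPKM in Control-siRNA+Mix cells against 3.78 ± 0.09 FPKM in Control-siRNA cells (−1.06, adjusted p = 0.000276; SD, n = 3 each). FADS3, a desaturase of sphingoid bases, rose in both (1.24 and 1.22; adjusted p = 0.0171 and 0.0173), and DGAT2, which makes triacylglycerol, rose in control-siRNA cells (0.62, adjusted p = 0.0143).

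Of 14 tested sphingolipid genes, which use serine at their first step, Mix raised 2 and lowered 1 in PHGDH-siRNA cells and raised 1 and lowered 2 in control-siRNA cells. UGCG, the glucosylceramide synthase, rose in both (1.03 and 1.06; adjusted p = 0.00160 and 0.00102), and SPTLC3, a serine palmitoyltransferase subunit, fell in both (−0.72 and −1.02; adjusted p = 0.0190 and 0.00247). CERS5 rose in PHGDH-siRNA cells (0.41, adjusted p = 0.0483) and CERS4, like CERS5 a ceramide synthase, fell in control-siRNA cells (−0.58, adjusted p = 0.0205). Of 17 tested fatty acid oxidation genes, PPARD, a nuclear receptor for fatty acids, rose in both arms (0.76 and 0.66; adjusted p = 0.00952 and 0.0188), and HADH, a mitochondrial dehydrogenase, fell in both (−0.69 and −0.72; adjusted p = 0.0240 and 0.0192). No gene of these 6 lists was called by limma for PHGDH siRNA without Mix, with Mix or averaged over Mix, or for the interaction, where the lowest adjusted p of any was 0.0835.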

How the data were processed

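The deposited table holds FPKM for 58735 genes in 12 libraries, made by the authors; the unit was read from the values. Tools listed in the submitters' processing notes are HISAT2 2.0.5 and CASAVA, with featureCounts 1.5.0-p3 and the build hg38, and their settings are not given; the labels' protocols name a NEBNext Ultra RNA kit. Multiplied by gene length, the FPKM values of a library were multiples of the value of 1 read; of those worth 200 reads or fewer, 100% were whole to within 0.05 of a read. Recovered reads came to 16403845 to 20901128 per library. Because the values were FPKM and not counts, the main test was limma 3.58.1 (R 4.3.3, trend and robust) on log2(FPKM + 1), which understates changes of low genes. The 14577 genes averaging at least 0.5 FPKM in 1 or more groups were tested, in 1 fit of all 12 libraries with 8 residual degrees of freedom. Two-sided p-values were adjusted by Benjamini-Hochberg over all genes of a comparison, with 0.05 as the limit. The smallest p of an exact permutation test with 3 libraries a group is 0.1.

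The 31 members, the 6 lists of related genes and the markers were chosen with earlier results of these data known. Values by library are given for members called in a comparison and for HMGCS1, INSIG1, SREBF1, SREBF2, FASN and SCD; from each list up to 3 called genes by adjusted p are named, and other genes named were chosen after their values were seen. The fit was tested on simulated data. Alternatives were pseudocount 0.1, no filter, quantile normalization, median centring, limma-voom on recovered reads, the groups of a comparison alone, the replicate block, no trend or robust options, each library left out, and both PHGDH-siRNA replicate 2 libraries left out.

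Replicate numbers were checked for pairing by the correlation, across genes, of same-numbered libraries' deviations from their group means. Over all groups 5 of 18 correlations were above 0.1, so numbers were not taken as pairs. Between PHGDH-siRNA+Mix and PHGDH-siRNA they were 0.690, 0.775 and 0.459, so the replicate block in those groups is given beside the Mix response there. Deviations from a mean of 3 are not independent, and 1 shared deviation raises all 3.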

Additional observations from a re-analysis of the deposited data

How the results depend on the processing

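Of 3193 results for single members under the alternatives, 2918 kept their direction and their side of the threshold, 234 changed sign with no call before or after, 9 lost a call and 31 gained one. Another, ACAT2 averaged over Mix for PHGDH siRNA, changed sign and gained a call, at −0.39 without both PHGDH-siRNA replicate 2 libraries, against 0.03 with them. Members called for Mix in control-siRNA cells (2) numbered 1 with no filter or with median centring, 4 with voom on recovered reads, 6 with the 2 groups alone, 7 without both replicate 2 libraries, and 1 to 2 with 1 library left out. For Mix in PHGDH-siRNA cells (1) they numbered 2 with voom, 0 with the 2 groups alone, 5 without both replicate 2 libraries, and 1 to 3 with 1 library left out. The replicate block over all groups gave 2 there and the replicate block in the PHGDH-siRNA groups alone 7; it changed no other count of members. For PHGDH siRNA the members called (0) numbered 2 without Mix and 3 averaged over Mix without both replicate 2 libraries, and 0 under each other alternative, as for the interaction and for PHGDH siRNA with Mix throughout. Quantile normalization swapped CYP51A1 for SREBF1 (lower) in control-siRNA cells.

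Counts over all genes moved more than 1.5 times as follows. Mix in control-siRNA cells (1391) gave 2690 with the 2 groups alone, 3023 without both replicate 2 libraries and 658 to 1223 with 1 library left out. Mix in PHGDH-siRNA cells (1291) gave 761 with no filter, 254 with the 2 groups alone, 3284 with the block in those groups, 2190 without both and 665 to 1644 with 1 left out. PHGDH siRNA without Mix (6) gave 1 with no filter, 12 with quantile normalization, 101 without both, 0 with the block or the 2 groups alone and 0 to 4 with 1 left out. PHGDH siRNA with Mix (3) gave 1 with pseudocount 0.1, 5 with no filter or voom, 55 without both, 0 with the block or the 2 groups alone and 0 to 6 with 1 left out. Averaged over Mix (71), 14 were called with no filter, 39 with the block, 492 without both, 0 on means of same-numbered libraries and 2 to 96 with 1 left out. The interaction (0) gave 5 with no filter. For Mix, 819 rose and 572 fell in control-siRNA cells, against 752 and 794 with quantile normalization and 736 and 788 with voom; in PHGDH-siRNA cells 761 rose and 530 fell, against 643 and 860 with voom, which moved the median of all genes to −0.10. The cause of these shifts was not tested. Depth limits CYP51A1 most, with 48 reads in 1 library.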
